A study of Mus musculus with 19 samples.

Results

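Natural killer cells, innate lymphocytes that kill stressed or infected cells, were examined among the cells of the tenotomy site in a mouse model of trauma induced heterotopic ossification (HO), the growth of bone in soft tissue. They were 164 of 39541 cells (0.415%), and held 738891 transcripts. Members were chosen by the transcripts of 4 marker genes, each counted as unique molecular identifiers (UMIs, 1 for each captured molecule). A cell was taken when at least 2 of Ncr1, Klrb1c, Klre1 and Gzma had a UMI, when the 3 T cell receptor chain genes Cd3d, Cd3e and Cd3g had at most 1 UMI together, and when the myeloid gene Csf1r and the stromal gene Pdgfra had none. Levels of these gate genes therefore describe the choice, and no test of them is used. The cells came from 16 of 19 libraries, and 140 of them (85.4%) from the day 7 and p7N3 libraries, which hold 62.8% of all cells.

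The 19 droplet libraries came from day 0 (4 libraries), day 3 (3 libraries), day 7 (4 libraries), day 21 (4 libraries) and mice given p7N3 (4 libraries), a peptide that activates CD47. The model is burn/tenotomy, a cut of the Achilles tendon together with a dorsal burn over 30% of the body surface. The study describes young adult male C57BL/6J mice and a day 0 without injury, while the labels list the burn for day 0 as well. The labels also name LysmCre/Tgfb1fx/fx mice, in which Tgfb1 is deleted by a Cre under the Lysm promoter active in myeloid cells, among the strains of the study, without tying a genotype to any library. The p7N3 mice received 10 mg/kg intraperitoneally each day for 3 days before and 3 days after the injury. The study set p7N3 beside PBS, but the labels tie PBS to no day 7 library, so that what the day 7 mice received is not known here, and they give no harvest day for p7N3 replicate 4. The study describes the replicates of a time point as a measure of variation between mice, while the labels name no animal, so that p-values measure the spread between these libraries.

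Natural killer cells read a balance of germline encoded activating and inhibitory receptors, many of them lectin-like proteins encoded side by side in the natural killer gene complex. Activating receptors signal through small adaptor proteins and release granules loaded with granzymes and perforin, while inhibitory receptors hold the cell back when its target carries MHC class I. They also secrete interferon gamma and chemokines that draw in dendritic cells and macrophages. In wounds they are known as early lymphocytes whose numbers are small beside those of monocytes and neutrophils.

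The 4 gate genes were present in similar parts of the members. Ncr1, which encodes the receptor NKp46, had a UMI in 125 members, Klrb1c (NK1.1) in 133, Klre1 in 137 and Gzma (granzyme A) in 133. All 4 were found in 67 members, 3 in 66 and 2 in 31. A further 184 cells met the other limits with 1 marker and lay just outside the gate. Their median depth was 8532 UMIs against 4196 in the members with 2 markers. Nkg7, a granule membrane gene, had a UMI in 9.78% of the 184 cells and in 100.0% of the 31 members with 2 markers, Klrd1 in 43.5% and 87.1%, and Ccl5 in 17.4% and 77.4%. Of 210 cells with at least 2 markers, 46 were left out, among them 18 for Cd3 and 22 for Csf1r, and 14 members held 1 Cd3 UMI.

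The members were shallow beside the other cells. Their median was 3838 UMIs and 1476.5 genes, with a range of 1062 to 28538 UMIs. The median of all kept cells was 8199 UMIs, and that of the 273 T lymphocytes, chosen in the same way by at least 2 Cd3 UMIs, was 4363. To compare shares of cells with a UMI, every cell was reduced by random draws to 1500 UMIs (thinned), a depth that 2 members did not reach and every T lymphocyte did. The 11582 cells with Pdgfra, with a median of 14777.5 UMIs, served as the background from free RNA for lymphocyte genes.

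The label was checked against other markers. After thinning, Nkg7 was present in 92.0% of natural killer cells, 27.8% of T lymphocytes and 0.182% of Pdgfra+ cells. Klrd1, the CD94 chain of several lectin-like receptors, was present in 82.1% and 16.5%, and Eomes, a transcription factor of circulating natural killer cells, in 21.6% and 1.10%. Xcl1, a chemokine for cross-presenting dendritic cells, was found in 43.2% of natural killer cells, 3.66% of T lymphocytes and 0.0260% of Pdgfra+ cells. Without thinning, Eomes had a UMI in 47.0% of the members and Tbx21, the other T-box factor of these cells, in 19.5%. Itga2, the CD49b integrin used to sort them, had a UMI in 3.66%, and Itga1, used for innate lymphocytes of tissues, in 1.22%. All 11 genes of the natural killer marker list that lie outside the gate had a UMI in the members, and their summed level was 9537 CPM (UMIs scaled to a total of 1000000) against 1204 CPM in all cells. Outside Malat1 and genes whose symbols begin with mt- or Rp, the 10 most abundant genes of the members were Tmsb4x, Actb, Tmsb10, Ccl5, Eef1a1, AW112010, B2m, Pfn1, Fau and H2-D1. Most of these serve the cytoskeleton, translation or MHC class I. The chemokine gene Ccl5 was at 5748 CPM in the members, 1258 CPM in T lymphocytes and 9.14 CPM in Pdgfra+ cells, and AW112010 at 4945 CPM, 1002 CPM and 19.5 CPM.

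**Figure D1:**
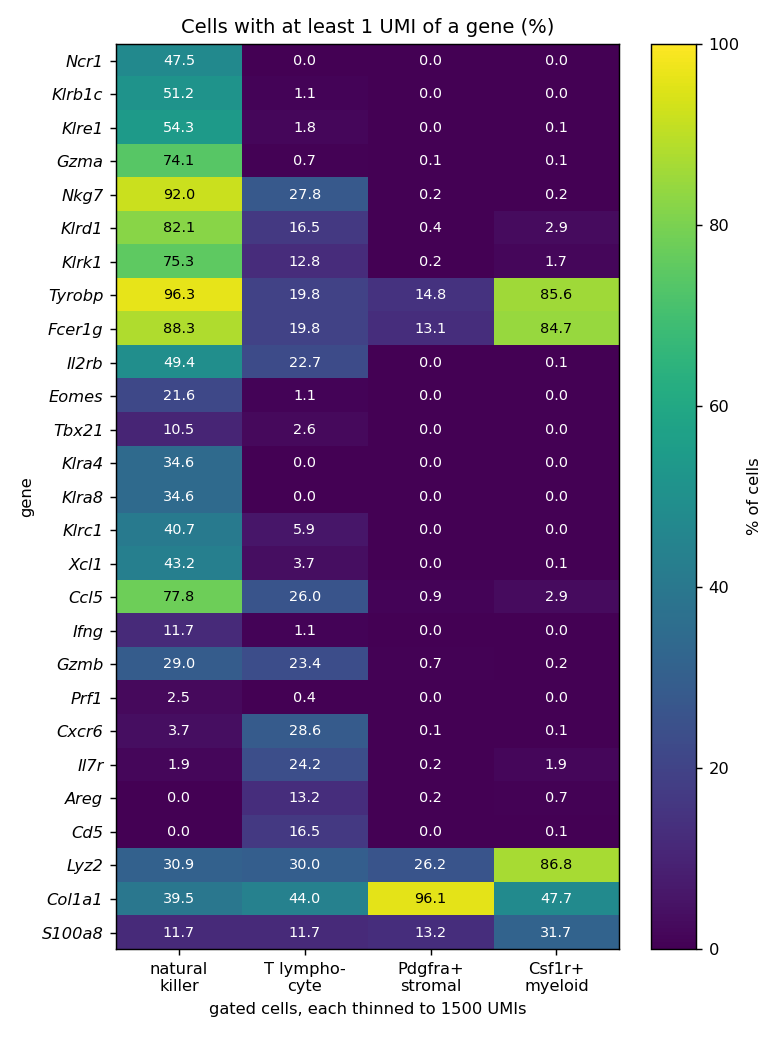
Percentage of cells with a UMI of each gene after thinning to 1500 UMIs, for natural killer cells, T lymphocytes, Pdgfra+ stromal cells and Csf1r+ myeloid cells (rows of the heat map are genes, columns are cell types, colour and printed value are percent). Nkg7, Klrd1 and Ccl5 are in 77.8% or more of natural killer cells, while Lyz2 and Col1a1 are about as frequent in natural killer cells as in T lymphocytes.

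Transcripts of other cell types were also present. Of the 7 T lymphocyte markers measured outside the gate, Cd4, Cd8a, Cd8b1 and Cd5 were at 0 in the members, and the 7 genes summed to 162 CPM, led by Cd28 at 105.6 CPM, against 16.5 CPM in all cells. The constant regions of the T cell receptor were not analysed here. Of 10 monocyte and macrophage markers, 9 had a UMI and Csf1r had none by choice, with a sum of 1072 CPM, 8.14% of the level in all cells, led by Apoe at 491 CPM. Stromal markers summed to 2041 CPM, 6.57% of the level in all cells, led by Col1a1 at 734 CPM. The 7 dendritic cell markers summed to 2251 CPM, 45.3% of the level in all cells, led by Cd74 at 1623 CPM. Neutrophil markers summed to 677 CPM (66.3% of that level) and endothelial markers to 187 CPM (69.8%). Single libraries weighed on these sums. Dendritic cell markers reached 14436 CPM in p7N3 replicate 4 and 6043 CPM in day 7 replicate 4. Neutrophil markers reached 2126 CPM in p7N3 replicate 1, and endothelial markers 1353 CPM in day 7 replicate 3. Those of ILC2, innate lymphocytes of type 2 responses, summed to 103 CPM (120.1%), led by Gata3 with Il5 and Il13 at 0. Of 6 mast cell and basophil genes, Cpa3, Mcpt4, Fcer1a, Mcpt8 and Ms4a2 were at 0 and Kit was at 27.1 CPM, against 22.8 CPM for the list in all cells. Lyz2, a myeloid gene, was present after thinning in 30.9% of natural killer cells, 30.0% of T lymphocytes and 26.2% of Pdgfra+ cells. Its share in natural killer cells was thus about that in cells that should lack it. Of the 12 dendritic cell and endothelial markers, 52 members (31.7%) and 75 T lymphocytes had a UMI of more than 1, and the shares of kept cells and the gene comparisons are also given without these cells. Doublets were not taken out except in an alternative, and 12 members (7.32%) were among the 3.9% of cells with the highest Scrublet doublet scores of their libraries.

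Natural killer cells were few in every library. At day 0 they were 0.399%, 0.350%, 0.360% and 0.457% of the kept cells of replicates 1 to 4. At day 3 they were 0.102% and 0.0936% of replicates 1 and 2, and 0 of 1691 cells of replicate 3, for which the upper limit of the share is 0.177% by 3 counts. At day 7 they were 0.827%, 0.447%, 0.436% and 0.448%. All 3 libraries of day 3 lay below all 4 of day 0, and the day 7 libraries overlapped those of day 0, with replicate 1 apart from the other 3. At day 21 the share was 0.195% and 0.331% in replicates 1 and 2, and 0 of 945 and 0 of 1956 cells in replicates 3 and 4, which allows up to 0.317% and 0.153%. With p7N3 it was 1.12%, 0.417%, 0.590% and 0.277%. These limits cover counting error only, and the day 21 values lay below every day 0 value while the p7N3 values spread across those of day 7.

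The group means were 0.391% ± 0.0483 (SD, n = 4) at day 0, 0.0651% ± 0.0565 (n = 3) at day 3, 0.540% ± 0.192 (n = 4) at day 7, 0.131% ± 0.162 (n = 4) at day 21 and 0.602% ± 0.371 (n = 4) with p7N3. Across 6 pairs of groups, an exact two-sided permutation test passed the adjusted threshold of 0.05 in none. Day 21 was lower than day 0 by 0.260 percentage points (exact permutation p = 0.0286, the smallest that 4 against 4 libraries allow, adjusted p = 0.0857), without overlap. Day 3 was lower than day 0 by 0.326 points and day 7 higher than day 3 by 0.474 points, each without overlap and with an exact permutation p of 0.0571, the smallest for 3 against 4 libraries. Day 21 was lower than day 7 by 0.408 points (exact permutation p = 0.0286, adjusted p = 0.0857). The separation of day 21 from day 0 was lost after thinning, with 3 of 4 markers, with no Cd3 UMI allowed and with top Scrublet scores removed, where the groups overlapped (exact permutation p = 0.0571 to 0.0857). That of day 21 from day 7 was lost among Ptprc+ cells (exact permutation p = 0.257) and without the members with dendritic cell or endothelial markers (exact permutation p = 0.0571). The difference of 0.0624 points between p7N3 and day 7 had a standard error of 0.209 and an exact permutation p of 0.829. Its sign was not stable. It was -0.0977 points among Ptprc+ cells and -0.112 points without p7N3 replicate 1, and it was also negative after thinning and with 3 of 4 markers.

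The direction at day 7 depended on the denominator. Cells with a UMI of Ptprc, which encodes the leukocyte protein CD45, were 10.9% of the kept cells at day 0, 77.0% at day 3, 37.3% at day 7 and 15.1% at day 21. Among Ptprc+ cells natural killer cells were 3.67% ± 1.41 (SD, n = 4) at day 0, 0.0639% ± 0.0631 (n = 3) at day 3, 1.38% ± 0.332 (n = 4) at day 7, 0.694% ± 0.855 (n = 4) at day 21 and 1.28% ± 0.712 (n = 4) with p7N3. Day 7 was lower than day 0 on this scale by 2.29 points without overlap (exact permutation p = 0.0286, adjusted p = 0.0857), whereas it was 0.148 points higher as a share of all cells (exact permutation p = 0.114, adjusted p = 0.137). T lymphocytes were 0.644% ± 0.211 of the cells at day 0, 0.246% ± 0.0548 at day 3, 0.825% ± 0.396 at day 7, 0.452% ± 0.0960 at day 21 and 0.879% ± 0.248 with p7N3. Of the 2 lymphocyte sets together, natural killer cells were 39.0% at day 0, 20.6% at day 3, 40.8% at day 7, 17.0% at day 21 and 38.4% with p7N3, each a mean over libraries. Without the 52 members with more than 1 dendritic cell or endothelial marker, the difference of day 7 from day 0 as a share of all cells was -0.0737 points (exact permutation p = 0.229), so that the sign turned here too. The composition of the sample that was dissociated is not known from these counts, so that a lower share and fewer cells in the tissue cannot be told apart.

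**Figure D2:**
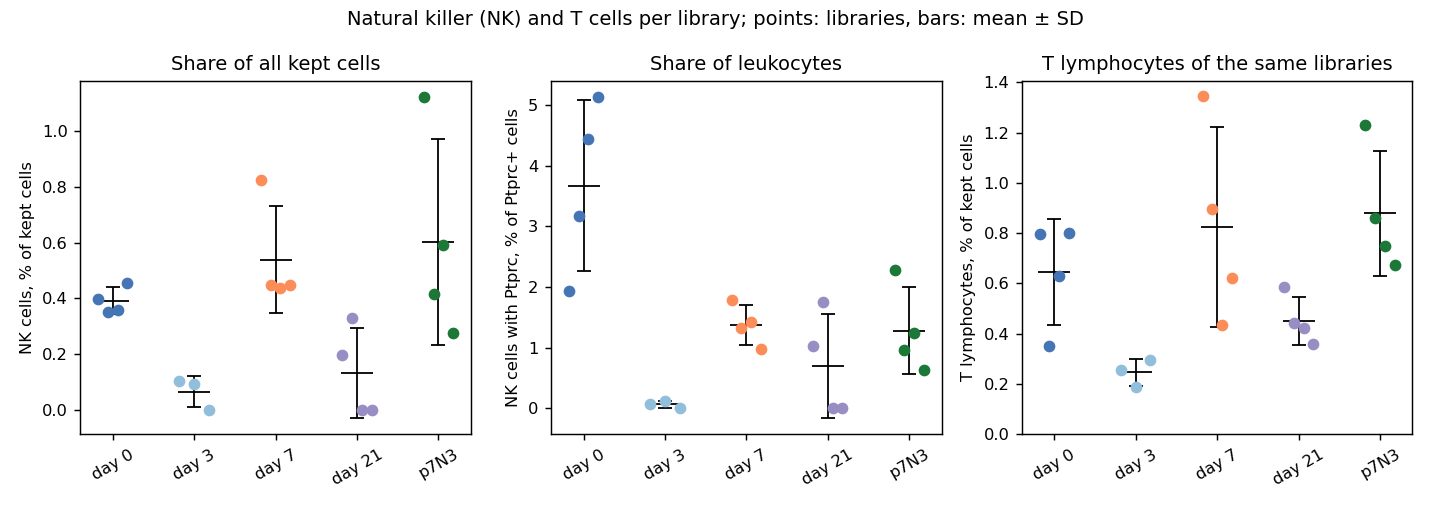
Natural killer cells as a percentage of kept cells (left) and of Ptprc+ cells (middle), and T lymphocytes as a percentage of kept cells (right), by group. Points are libraries and bars the mean ± SD. Natural killer cells at day 0 lie between 0.350% and 0.457% of kept cells, above all 3 libraries of day 3, and their mean share of Ptprc+ cells is highest at day 0.

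Natural killer cells were then compared with T lymphocytes of the same libraries. This used UMIs summed per library in the 7 libraries with at least 10 cells of both kinds, 4 of day 7 and 3 of p7N3, with 133 natural killer cells and 194 T lymphocytes. The quasi-likelihood test of edgeR, blocked by library, was run over 1468 genes with Benjamini-Hochberg adjustment. At an adjusted p of 0.05, 262 genes (17.8%) passed, 141 of them higher (9.6%) and 121 lower (8.24%). Both sets were drawn by their own transcripts, so the 7 gate genes among those tested are left out of the counts that follow. Of the other 1461 genes, 137 were higher in natural killer cells (9.38%) and 118 lower (8.08%), and the median log2 fold change was -0.00. Adjusted p-values in this comparison are edgeR's. A gene at or near 0 in one cell type could be tested only through its level in the other, so that counts and medians of lists with such genes describe the genes tested and are no further support.

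Activating receptors and their adaptors were higher in natural killer cells in each of the 5 genes of the list that were tested, with a median log2 fold change of 2.99. Tyrobp, the adaptor DAP12, had 2407 to 3088 CPM in natural killer cells (median 2693, 7 libraries) and 197 to 634 CPM in T lymphocytes (median 295). No natural killer library was as low as any T lymphocyte library. Its log2 fold change was 3.10 (standard error 0.23, adjusted p = 2.59e-07). Klrk1, the receptor NKG2D, had a log2 fold change of 2.99, from 539 to 1005 CPM against 58.2 to 181. Klrd1 differed by 3.04 and Fcer1g, a signalling chain also used by myeloid cells, by 2.68. Hcst, the adaptor DAP10 of NKG2D, was closer, with a log2 fold change of 0.52 and 408 to 661 CPM against 311 to 503.

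Of 6 genes on the list of inhibitory receptors that were tested, 5 were higher and 1 lower, with a median log2 fold change of 4.48. The members that rose do not all inhibit, since Klra4 and Klra8 encode the Ly49D and Ly49H receptors, which activate through DAP12. Klra4 had 197 to 940.4 CPM in natural killer cells (median 576, 378 UMIs) and no UMI in the T lymphocytes of the 7 libraries. Against a floor of 3 UMIs over these T lymphocytes it was at least 219-fold higher. Klra8 had 329 to 762 CPM (median 399) and again no UMI in T lymphocytes, so that it was at least 160-fold higher by the same floor. No other of the 6 genes tested on this list lacked a UMI in T lymphocytes.

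The remaining inhibitory receptors fell on both sides. Klra9 had 121 UMIs in natural killer cells and 3 in T lymphocytes, a ratio of CPM of 70.01 (exact interval of 95% for counting error, 23.4 to 344). Klra7, the inhibitory Ly49G2, had a log2 fold change of 3.04, and Klrc1, the NKG2A chain that pairs with CD94, one of 3.21. Klrg1, an inhibitory receptor of mature lymphocytes, was lower, with 0 to 48.6 CPM in natural killer cells against 219 to 549 CPM in T lymphocytes and a difference of -3.82 on the log2 scale (standard error 0.31, adjusted p = 6.33e-07). The Ly49 genes are members of 1 family. Within the last 500 bases of their transcripts, which this 3' assay reads, windows of 98 bases occurred in another gene for 0% of Klra4 and Klra8, 4.12% of Klra7, 8.56% of Klra9 and 18.1% of Klrc1, so that Klrc1 may share reads with Klrc2.

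The receptor genes lie together in the genome. From Klrb1c to Klra1 the natural killer gene complex spans chr6:128778485-130386874 (GRCm38, GENCODE vM21), 1.61 Mb with 39 protein-coding genes. Outside the gate, 7 of these genes were high enough to be tested, namely Klrd1, Klrk1, Klrc1, Klra4, Klra8, Klra9 and Klra7. Each was higher in natural killer cells, which is given as a description, since Klra4, Klra8 and Klra9 had 0, 0 and 3 UMIs in T lymphocytes and could be tested only through natural killer cells. Klra4 is at chr6:130043731-130067271 and Klra8 at chr6:130115226-130129898, both on the minus strand. The 120 bases before the starts of these 2 neighbours are given 5′ to 3′ from RefSeq on GRCm38.p6. They are from chr6:130067272-130067391 and chr6:130129899-130130018, minus strand. Shifted by 1 base against each other, they are identical at 104 of 119 positions. Against the 120 bases before the annotated start of Klra9, those of Klra4 and Klra8 were 44.0% and 42.4% identical when aligned with gaps. The letters ggaggggcagaaa end the stretch of Klra9 but lie further from the start in those of Klra4 and Klra8. These percentages thus depend on where the starts are annotated and do not show how alike the genes are. For Klra7 a stretch inside the annotated gene was compared, chr6:130231688-130231807, and its pairs were 38.9% to 43.4% identical. The stretch before the annotated start of Klra7, chr6:130233323-130233442, was not compared, so that the most alike pair of the 4 genes is not settled.
Klra4: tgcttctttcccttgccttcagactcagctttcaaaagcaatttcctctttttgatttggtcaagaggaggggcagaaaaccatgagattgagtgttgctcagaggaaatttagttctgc
Klra8: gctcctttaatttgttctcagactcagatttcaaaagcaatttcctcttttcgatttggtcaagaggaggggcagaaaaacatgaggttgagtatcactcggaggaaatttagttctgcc

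Genes of the cytotoxic granule were mixed. Of 8 tested, 4 were higher (Nkg7, Serpinb6b, Serpinb9 and Ctsw), 1 was lower (Srgn) and Cst7, Lamp1 and Gzmb did not pass, with a median log2 fold change of 1.57. Nkg7 had 1962 to 2934 CPM in natural killer cells and 127 to 491 CPM in T lymphocytes, a log2 fold change of 2.84. The serpins Serpinb9 and Serpinb6b, which inhibit granzymes inside the cell that makes them, differed by 4.01 and 3.27, with 226 to 551 CPM of Serpinb9 in natural killer cells against 0 to 42.3 CPM. Gzmb, the granzyme that activates caspases, had 195 to 465 CPM in natural killer cells and 201 to 1223 CPM in T lymphocytes, and these overlapped (log2 fold change -0.57, adjusted p = 0.166). Srgn, the proteoglycan core on which granules pack their cargo, differed by -0.56. Prf1 (perforin) was too low to be tested, with 19 UMIs in 10.4% of all members.

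Among 6 cytokine genes tested 3 were higher, 1 was lower and Tgfb1 and Ltb did not pass. Xcl1 had 539 to 1556 CPM in natural killer cells and 8.32 to 190.2 CPM in T lymphocytes, a log2 difference of 4.41 (standard error 0.33, adjusted p = 2.84e-07). Ccl5, which attracts monocytes and T cells, had 2737 to 6764 CPM against 225 to 3457 CPM, a log2 fold change of 2.20, and was higher in natural killer cells in 7 of 7 libraries although the ranges met. Ccl4 differed by 2.23 and was higher in 6 of 7. Areg, an epidermal growth factor ligand of tissue repair, was lower, with no UMI in natural killer cells and 129 to 371 CPM in T lymphocytes, so that it was at least 44.4-fold lower by a floor of 3 UMIs over the group. Tgfb1 was level, with 145 to 334 CPM in natural killer cells and 151 to 334 CPM in T lymphocytes (log2 fold change 0.02, standard error 0.19).

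**Figure D3:**
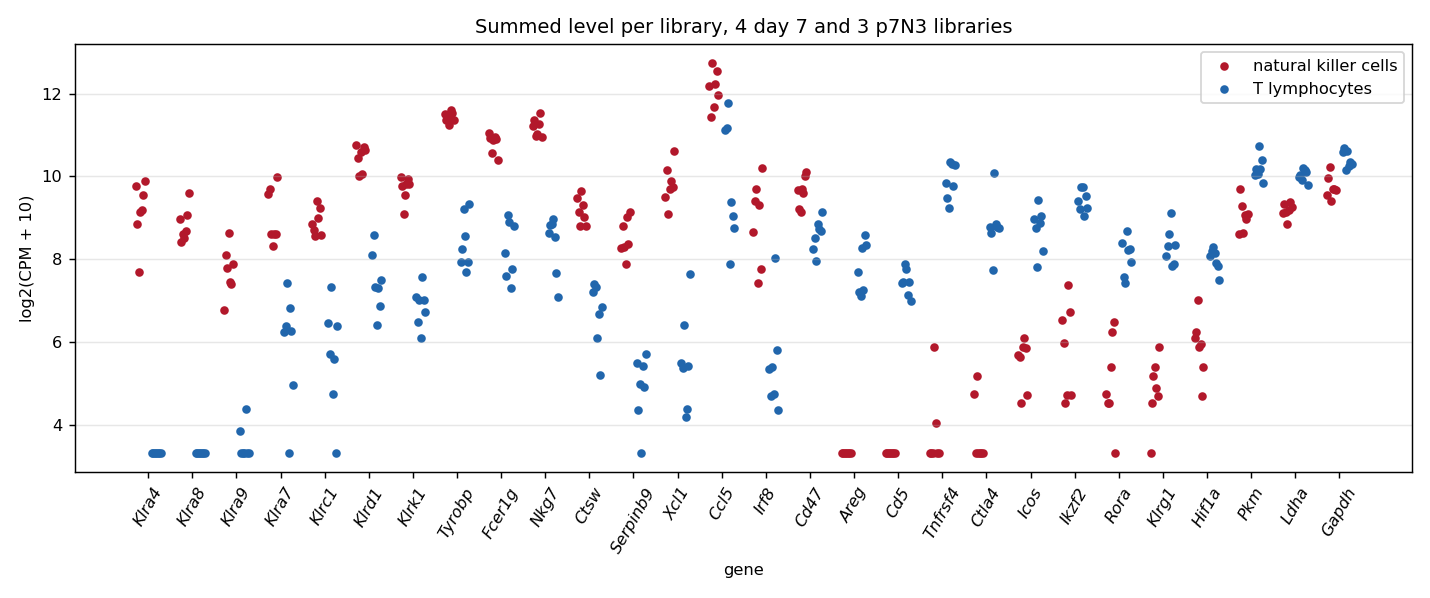
Level of 28 genes as log2(CPM + 10) in natural killer cells and T lymphocytes of the same 7 libraries (points are libraries). Klra4 and Klra8 have no UMI in T lymphocytes, Areg and Cd5 have none in natural killer cells, and the points of Ccl5, Irf8 and Gapdh overlap between the cell types.

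Homing receptors went in both directions. Of 9 tested, 5 were higher, among them Cxcr4, Itgb1 and Ccr2, and 2 lower (Cxcr6 and Itgb7). Itgb1, an integrin beta chain, differed by 1.65 without overlap. Cxcr6, a receptor of tissue lymphocytes, had 0 to 96.9 CPM in natural killer cells and 43.1 to 459.9 CPM in T lymphocytes (log2 fold change -2.49), and Itgb7, for entry into the gut, differed by -1.74. Among 4 cytokine receptors tested, Il2rb, a chain of the interleukin 2 and 15 receptors, rose by 1.35 and Ifngr1 by 0.78, while Il18r1 and Il2rg did not pass.

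Transcription factors also divided. Runx3, Klf2, Irf8 and Id2 were higher, Ikzf2, Gata3 and Ets1 lower, and Bhlhe40 did not pass. Irf8, which is also a factor of dendritic cells, ranged from 162 to 1167 CPM in natural killer cells and from 10.6 to 252 CPM in T lymphocytes, with a log2 fold change of 3.39 and a higher value in 7 of 7 libraries. Id2, which restrains E proteins in innate lymphocytes, differed by 0.66. Ikzf2 (Helios) had 13.1 to 157 CPM against 519.7 to 851, a log2 fold change of -3.21. Beside it, Ctla4 (-5.85), Tnfrsf4 (-6.98), Icos (-3.37), Cd5 (at least 33.4-fold lower by the floor of 3 UMIs) and Rora (-2.93) were among the genes lower in natural killer cells. Ctla4, Tnfrsf4 and Icos encode receptors of activated and regulatory T cells.

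Several genes of sugar breakdown were lower in natural killer cells. Of 7 tested on the list of glycolysis and iron, 5 were lower (Gapdh, Ldha, Aldoa, Pkm and Hif1a), none was higher, and Eno1 and Pgam1 did not pass, with a median log2 fold change of -0.65. Pkm (pyruvate kinase) had 382 to 816 CPM against 898 to 1688 and differed by -1.09, and Hif1a, the oxygen sensing factor that drives several of these genes, by -2.08. Ldha (lactate dehydrogenase) had 452 to 654 CPM against 877 to 1164, a log2 fold change of -0.81. Pkm, Hif1a and Ldha did not overlap between the cell types, while Gapdh and Aldoa did. For comparison, 0 of 6 cell cycle genes passed in either direction, and of 11 immediate early and heat shock genes, which rise during tissue dissociation, Btg2 was higher and Jund and Junb lower.

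Of the CD47 and TGF beta genes, 3 of 12 were high enough to be tested. Cd47, the target of p7N3, had 552 to 1086 CPM in natural killer cells (median 806) and 237 to 549.6 CPM in T lymphocytes (median 398). The ranges did not overlap, and the log2 fold change was 1.12 (standard error 0.13, adjusted p = 2.39e-05). Tgif1 differed by -0.95. Tgfbr1 and Tgfbr2, the receptors of TGF beta, had a UMI in 6.10% and 17.7% of the members. Cd47 had a UMI in 92.7% of the members, and after thinning in 67.9% of natural killer cells, 36.6% of T lymphocytes, 36.6% of Pdgfra+ cells and 41.6% of Csf1r+ cells.

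Outside the lists, the widest gene among those higher in natural killer cells was Car2, a carbonic anhydrase, with 210.2 to 702 CPM in natural killer cells against 0 to 26.4 CPM and a log2 fold change of 5.71. Serpina3g, a serpin of lymphocytes, differed by 3.69. Ass1, an enzyme of arginine synthesis, and Ifi27l2a, an interferon induced gene, differed by -5.71 and -5.00. Of 3 interferon response genes tested Ifi27l2a and Ly6a were lower and Bst2 did not pass. Of 56 genes named in this comparison, 44 kept their direction and their side of the threshold under every alternative setting in which they were tested and with each library left out, and none reversed. The others, Aldoa, Ccl4, Ccr2, Cxcr4, Ets1, Hcst, Id2, Ifngr1, Jund, Klf2, Runx3 and Tgif1, lost their call under at least 1 setting. Without the cells with more than 1 dendritic cell or endothelial marker, 792 genes could be tested, with 87 higher and 75 lower, and 142 of these 162 calls were among the 262. Of the named genes tested there, Hcst and Ifngr1 lost their call.

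**Figure D4:**
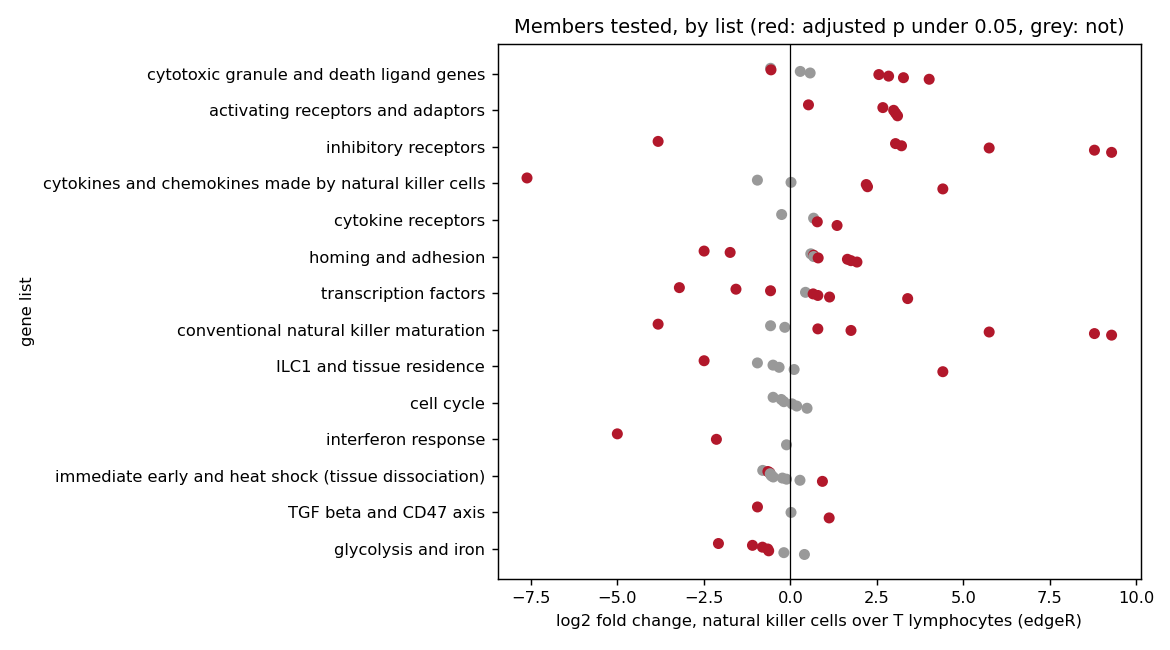
Log2 fold change of natural killer cells against T lymphocytes for the tested genes of each list (points are genes, red where the adjusted p of edgeR is under 0.05 and grey elsewhere). Activating receptors and adaptors lie above 0 and genes of glycolysis and iron mostly below it.

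Promoters of the genes higher in natural killer cells were searched for 3 short motifs in the 250 bases before and 50 after the start (RefSeq, GRCm38.p6), on both strands and without regard to overlap between motifs. The letters were TGTGGTT for RUNX factors, AGGTGTGA for T-box factors and CCGGAAGT for ETS factors. A promoter was found for 103 of the 137 higher genes and 88 of the 118 lower genes. The RUNX letters were in 7.77% of the higher genes, 5.68% of the lower genes and 6.09% of all 27025 genes with a promoter. The T-box letters were in 3.88%, 2.27% and 1.48%, which is 4 genes, 2 genes and 399 genes. The ETS letters were in 2.91%, 2.27% and 4.31%. Among the 1137 tested genes with a promoter, 60 held the RUNX letters (5.28%), 13 the T-box letters (1.14%) and 114 the ETS letters, so that the ETS share of tested genes was above that of all genes. A match describes the sequence and is not evidence of binding, and these shares rest on few genes.

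The RUNX letters stood before 3 of the 4 gate genes, Ncr1, Klre1 and Gzma, and before Klrk1 and Xcl1. The bases around the match are shown for 4 of these genes to place the motif, 5′ to 3′ on the strand of the gene with the RUNX letters in capitals, which read AACCACA, their reverse complement, in Gzma and Xcl1. They are from chr7:4337503-4337581 (plus strand) for Ncr1, chr13:113100990-113101068 (minus) for Gzma, chr6:129623951-129624029 (minus) for Klrk1 and chr1:164935708-164935772 (minus) for Xcl1. The match began 176, 51, 129 and 228 bases before the start.
Ncr1: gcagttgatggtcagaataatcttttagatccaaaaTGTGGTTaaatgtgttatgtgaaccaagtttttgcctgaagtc
Gzma: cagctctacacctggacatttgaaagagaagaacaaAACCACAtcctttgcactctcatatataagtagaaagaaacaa
Klrk1: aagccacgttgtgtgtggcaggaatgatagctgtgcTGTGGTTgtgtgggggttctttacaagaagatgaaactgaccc
Xcl1: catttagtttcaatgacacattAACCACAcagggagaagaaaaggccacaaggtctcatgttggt

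Few as they were, natural killer cells held a large part of some transcripts of the whole tissue. At day 7 they held 0.238% ± 0.0861 (SD, n = 4) of all UMIs of a library. Of the UMIs of Xcl1 they held 56.4% ± 19.2 (511 UMIs in the 4 libraries), of Nkg7 52.3% ± 9.10, of Fasl 56.9%, of Ctsw 39.1% and of Ifng 40.8% ± 10.4 (71 UMIs). On average more of Xcl1, Nkg7 and Fasl was thus found in natural killer cells than in all other cells together. By contrast they held 12.1% ± 4.85 of Ccl5 and 8.76% ± 4.10 of Gzmb, of which T lymphocytes held 9.07% and 32.1%, 1.23% of Ccl4 and 0.456% of Tgfb1. With p7N3 the parts were 61.5% ± 17.5 for Xcl1, 57.3% for Ifng (34 UMIs), 18.5% ± 10.2 for Ccl5 and 8.68% for Gzmb. Csf2, the gene of GM-CSF, had no UMI in the members.

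At day 0 the same cells held most of Ccl5. Their part was 87.6% ± 10.7 (SD, n = 4) of 1007 UMIs, against 3.75% in T lymphocytes, while they held 0.229% ± 0.0515 of all UMIs. All 24 UMIs of Gzmb at day 0 were in natural killer cells, from the 3 libraries that had any, and 72.7% ± 19.96 of Nkg7. These parts rest on 14 cells.

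**Figure D5:**
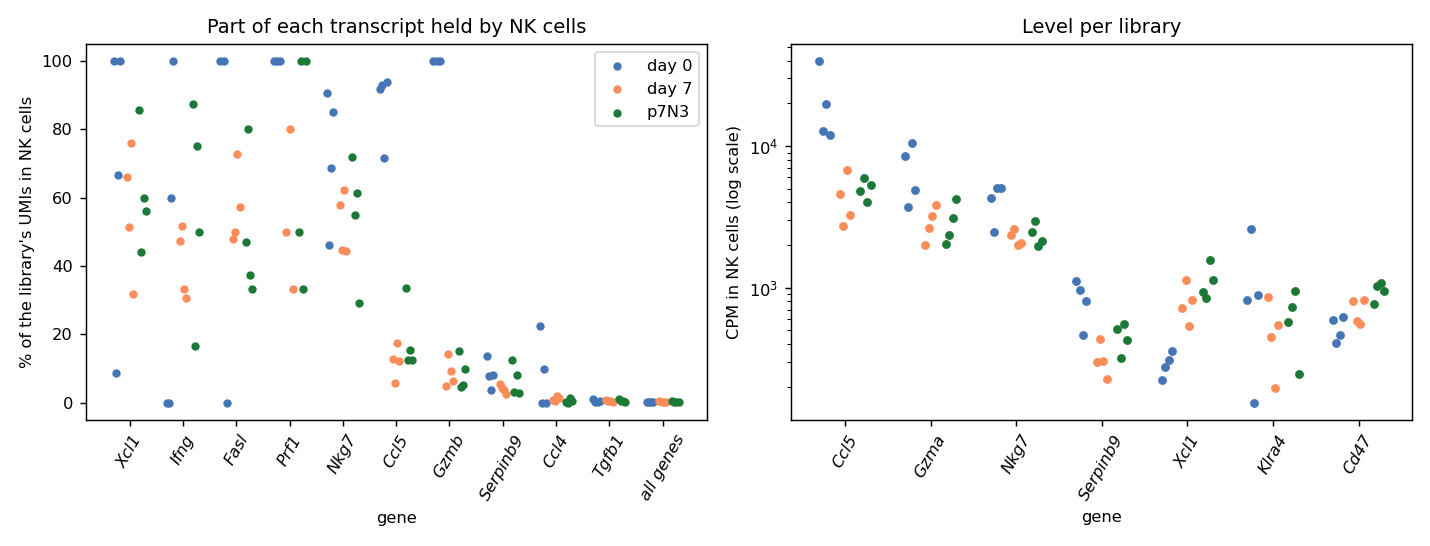
Left, percentage of each gene's UMIs of a library that were in natural killer cells, for day 0, day 7 and p7N3 (points are libraries, with all genes for comparison). Right, level of 7 genes in natural killer cells as CPM on a log axis. The mean part of Ccl5 is 87.6% at day 0 and 12.1% at day 7, and its level in the cells is lower at day 7 in all 4 libraries.

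Levels in natural killer cells at day 7 were set beside those at day 0. The day 0 libraries hold 2 to 4 members each, so this comparison used sums of at least 2 cells and was added after the data were seen. edgeR over 579 genes called 30 (5.18%), of which 9 were higher at day 7 (1.55%) and 21 lower (3.63%), and 116 had an unadjusted p under 0.05. Without the gate genes 9 of 575 were higher (1.57%) and 20 lower (3.48%). These counts were not stable. With a library left out they were 4 to 13 higher and 8 to 28 lower. The higher genes were 4 without day 0 replicate 1, day 0 replicate 3 or day 7 replicate 2, and the lower genes 8, 12 and 10 without day 0 replicates 1, 2 and 4. With top Scrublet scores removed 18 were higher and 4 lower, and with no filter 200 and 8. Ccl5 had 39828, 12847, 19726 and 12029 CPM in day 0 replicates 1 to 4 and 4611, 2737, 6764 and 3279.9 CPM in those of day 7. Every day 7 value was below every day 0 value, and the log2 fold change was -2.27 (standard error 0.40, edgeR adjusted p = 0.00266). In the members, markers of other cell types were at different levels on the 2 days too. As pooled sums from day 0 to day 7, dendritic cell markers went from 77.9 to 2279 CPM. Monocyte and macrophage markers went from 156 to 1077 CPM, stromal markers from 519.7 to 3173 CPM and endothelial markers from 26.0 to 341 CPM. In day 7 replicates 1 to 4 the dendritic cell markers were at 922, 1197, 2443 and 6043 CPM. The endothelial markers were at 1353 CPM in day 7 replicate 3 and 26.3 to 49.9 CPM in the other 3 libraries. The part of all these markers in this comparison was not tested. In all cells together Ccl5 went from 54.6 to 88.8 CPM. Clusters of the members divided the days unevenly, which is a description. At a Leiden resolution of 0.5, the group of 74 cells held 11 members of day 0 and 25 of day 7. The group of 68 cells held 3 and 38. At a resolution of 1.0, the genes leading a group of 26 cells included Nr4a3, Crem, Vps37b and Ccl5. It had Ccl5 at 14295 CPM against 4493 CPM in the rest, and 9 of its cells came from 1 library. This group held 10 of the 14 members of day 0, 2 of the 72 of day 7 and 14 of the 68 of p7N3. Crem, Vps37b and Ccl5 helped to define it, so that it adds no support to their calls. The call of Ccl5 between the days held in every alternative and with each library left out, which among 29 named genes was so for Ccl5, Tubb5 and Rbm3. Without the members with more than 1 dendritic cell or endothelial marker, 14 genes were higher and 10 lower of 805, and Serpinb9, Nkg7, Txk and Ugcg lost their call.

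Further genes were lower at day 7. Serpinb9 had 1115, 957, 462 and 802 CPM at day 0 and 299, 434, 302 and 226 CPM at day 7, without overlap, and differed by -1.43 on the log2 scale. Nkg7 differed by -0.90 with overlapping libraries, and Gzma, a gate gene, is only described, with 3690.0 to 10479 CPM at day 0 and 1994 to 3829 CPM at day 7. Of 6 cytotoxic genes tested 2 were lower and none higher, with a median log2 fold change of -0.66, and of 11 immediate early and heat shock genes Ier2 was lower (-1.32). Vps37b (-1.995), Crem (-2.51), Pik3r1 (-1.74), Txk (-1.45) and Ugcg (-1.42) were also lower. Of these Crem overlapped between the days, with 743, 2323, 154 and 178 CPM in day 0 replicates 1 to 4 and 74.8 to 171 CPM at day 7. In all cells together Ier2 had 494 CPM at day 0 and 206 CPM at day 7, Vps37b 51.7 and 22.7, Crem 76.6 and 38.5, and Pik3r1 115.6 and 52.4, so that these 4 were lower in the tissue as well, while Ugcg had 40.1 and 71.9 CPM. Txk is a kinase of T and natural killer cells, Crem a factor of the cyclic AMP response and Pik3r1 a regulatory subunit of the PI3 kinase. Xcl1 went the other way, with 223, 273, 308 and 356 CPM at day 0 and 715, 1132, 539 and 824 CPM at day 7, without overlap, but did not pass (log2 fold change 1.48, edgeR adjusted p = 0.0594).

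Some of these differences were shared with the rest of the tissue. Of the 21 lower genes, 9 are ribosomal pseudogenes, unnamed gene models or Rps27rt and Wdr89, and they were lower in all cells as well, as for Rps27rt with 932 CPM at day 0 and 304 CPM at day 7. Malat1, a nuclear RNA, fell by 1.11 in natural killer cells, and in all cells its mean was 35457 CPM at day 0 and 16962 CPM at day 7. The mitochondrial gene mt-Nd2 was lower by 1.295, with 1577 and 422 CPM in all cells. Among the higher genes, Col1a1 had 332 to 3237 CPM in natural killer cells at day 7 and 0 to 273 CPM at day 0, while all cells had 12355 and 3815 CPM, and Col3a1 moved likewise. Whether free RNA has a part in this was not tested. Tubb5, a tubulin of dividing cells, had 657 to 1987 CPM at day 7 and 1 UMI at day 0, and Serpina3g had 275 to 399 CPM and 1 UMI. In all cells Tubb5 had 341 CPM at day 0 and 788 CPM at day 7, and Serpina3g 1.11 and 13.6 CPM.

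The effect of p7N3 was tested in 3 p7N3 and 4 day 7 libraries with at least 10 members. edgeR called 0 of 1105 genes (0.0%), and 51 had an unadjusted p under 0.05. DESeq2 called 0 as well, with 25 unadjusted. On simulated counts of the same size, with 200 of 1105 genes changed at once, 48.5% of 2-fold changes and 85.5% of 4-fold changes were recovered. Many changes of the smaller size would thus be missed. Recovery when few genes change, which the adjustment makes harder, was not simulated. None of the 14 lists had a gene that passed. Cxcl2, a neutrophil chemokine, had the lowest p, with 334, 143 and 146 CPM in p7N3 replicates 1 to 3 and 66.5, 26.3, 26.3 and 32.3 CPM in day 7 replicates 1 to 4 (log2 fold change 2.38, edgeR adjusted p = 0.23). S100a8, a neutrophil gene, followed with 942, 462 and 113 CPM against 49.9, 184, 13.1 and 48.5 CPM (2.82, edgeR adjusted p = 0.351). The 6 neutrophil markers summed to 2126, 765, 195 and 92.1 CPM in the members of p7N3 replicates 1 to 4 and to 149.6, 553, 39.4 and 96.9 CPM in those of day 7. These sums overlapped, replicate 1 of p7N3 being the highest, and their part in these values was not tested.

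Genes of natural killer function had no call between the groups, which does not show that their levels were alike. Full separation of 3 from 4 libraries has an exact two-sided permutation p of 0.0571. Some of the 1105 genes tested are thus expected to separate without any effect, and how many did was not counted. Srgn had 890, 973 and 762 CPM with p7N3 and 689.6, 658, 407 and 549 CPM at day 7, without overlap (log2 fold change 0.55, edgeR adjusted p = 0.844). Klra1, a Ly49 receptor, had 157, 207 and 211 CPM against 8.31, 79.0, 52.5 and 145 CPM, also without overlap (1.51, edgeR adjusted p = 0.735). Nkg7 had 2467, 2934 and 1962 CPM with p7N3 and 2368, 2606, 1996 and 2068 CPM without, a log2 fold change of 0.07 (standard error 0.16). Ccl5 had 4783, 5947 and 4005 CPM against 4611, 2737, 6764 and 3279.9 CPM, a log2 fold change of 0.11 (standard error 0.26). Cd47 had 766, 1020.4 and 1086 CPM against 806, 579, 552 and 824 CPM, a log2 fold change of 0.41 (standard error 0.22, edgeR adjusted p = 0.952). In Nkg7, Ccl5 and Cd47 the groups overlapped. Tgfb1 had 334, 303 and 292 CPM with p7N3 and 291, 211, 223 and 145 CPM at day 7, which did not overlap, with a log2 fold change of 0.43 (standard error 0.28, edgeR adjusted p = 0.97). Igfbp7, a secreted protein abundant in vessel walls, was at 47.8 to 58.9 CPM with p7N3 and at 249, 408, 4715 and 129 CPM at day 7, its top value in replicate 3, where the 5 endothelial markers also summed to 1353 CPM.

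Dividing cells were counted as those with a UMI of at least 2 of the 14 cell cycle genes. These were 76 of 164 members (46.3%). After thinning they were 17.9% of natural killer cells, 24.5% of T lymphocytes, 12.7% of Pdgfra+ cells and 7.41% of Csf1r+ cells. At day 7 the unthinned share was 37.0%, 50%, 25% and 61.5% in replicates 1 to 4, and with p7N3 it was 58.1%, 60.0% and 53.3% in replicates 1 to 3. Replicate 4 of p7N3 had 28.6% and was left out by the minimum of 10 cells. The mean was 57.1% ± 3.43 (SD, n = 3) with p7N3 and 43.4% ± 15.8 (n = 4) at day 7, a difference of 13.7 points within the spread of day 7 (standard error 8.16, exact two-sided permutation p = 0.286). With replicate 4, which has 7 members, the p7N3 mean was 49.99% ± 14.6 (n = 4) and the difference 6.60 points (exact two-sided permutation p = 0.571). With at least 3 cell cycle genes required, and without replicate 4, the sign turned (-2.74 points, exact two-sided permutation p = 0.686). The part of free RNA in these counts was not tested, and no cycling rate is read from them.

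The members were also clustered among themselves by genes outside the gate. At a Leiden resolution of 0.5 they formed 4 groups of 74, 68, 14 and 8 cells. The group of 74 was led by Igfbp7, Cd74, H2-Eb1 and H2-Aa, genes of vessels and of antigen presenting cells, and had 1234 CPM of Col1a1 against 295 CPM in the rest. The group of 68 was led by Bcl2, Zfp512 and Ccr2. The group of 14 was led by Hist1h2ap, Ube2c and 2810417H13Rik, genes of DNA replication and mitosis, and came from 6 libraries, with 6 cells of day 7 and 8 of p7N3. Its median depth was 7114 UMIs, and it had 1756 CPM of Ccl5 against 6383 CPM in the rest. These genes define the groups and are a description. At a resolution of 1.0 there were 6 groups, of which 1 of 34 cells was led by the endothelial genes Col4a2, Plvap and Col18a1, and 1 of 14 cells by the dendritic cell genes Cd209a, Cd74 and H2-Eb1. Whether the cells of these 2 groups are doublets was not tested.

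The group of 8 cells stood apart in its effector genes. It was led by Gzmc, a granzyme of activated lymphocytes, with 2281 CPM against 24.1 CPM in the rest, and by Cxcr6, with 669 CPM against 17.0 CPM. It had 2250.1 CPM of Xcl1 against 790.4 CPM, 1155 CPM of Ccl5 against 5962 CPM and 30.4 CPM of Gzmb against 379.6 CPM. Eomes and Klra4, at 160.1 and 669 CPM in the rest, had no UMI in it. The cells came from 5 libraries, 3 of day 7 and 5 of p7N3. At the higher resolution the group led by Gzmc and Cxcr6 had 28 cells, so that its border was not sharp. It was given no name.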

How the data were processed

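The authors made 10x libraries, counted reads with Cell Ranger and deposited UMI counts per gene and barcode without normalization. The submitters' notes name mm10 for 4 libraries and GRCh38 for 15, but all 19 gene tables hold the same mouse genes. The day 0 replicate 1 file holds all 737280 barcodes. A barcode was kept from 500 detected genes upward and with no more than 25% of its UMIs from mitochondrial genes, leaving 3019467 to 39870492 UMIs per library. CPM are UMIs of a gene scaled to a total of 1000000 UMIs over the cells summed. Of 164 members 10 (6.10%) had a barcode that a kept cell of another library also had, in no case another member, against 1962 of all 39541 kept cells (4.96%), and of 38554 distinct kept barcodes 975 were in more than 1 library.

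The members and gene lists were chosen with earlier results of these data known. Sums per library were tested with edgeR 4.0.16 (R 4.3.3, TMM, quasi-likelihood, filterByExpr), and shares with exact permutation tests (scipy 1.17.1) adjusted over 6 pairs. Sums needed at least 10 cells, and 2 in the added comparison. The fit of p7N3 against day 7 used all libraries with 10 members. Clusters were made with scanpy 1.11.5 and leidenalg 0.10.2. Genes were named when they passed and a list held them, or when they were among the widest in a direction at a mean of at least 50 CPM, which were 8 genes between groups (without overlap) and 10 between cell types (the same direction in every library). Gate genes and the 10 most abundant genes were described. Other genes were named after their values were seen, and 2 genes that the rule names are not reported here. Alternatives were DESeq2 1.42.0, RLE factors, other filters and cell minimums, a stricter gate, doublet removal, a replicate block and leaving out libraries. The comparison of day 7 with day 0 and the removal of cells with dendritic cell or endothelial markers were chosen after seeing the data. On simulated counts for natural killer cells against T lymphocytes, 200 of 1468 genes were changed at once. Of 2-fold changes 83% were recovered and of 4-fold changes 81.5%, with 4.05% and 4.68% of the calls false. Recovery did not rise with the size of the change, so that these rates are rough, and why was not tested.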

Additional observations from a re-analysis of the deposited data

Results flagged for a closer look

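Of 69 groups of 4 to 10 libraries examined, 3 had a library far from the others, and chance flags about 5% of groups. The share of natural killer cells in day 7 replicate 1 was 0.827% of kept cells, against 0.436% to 0.448% in the other 3 day 7 libraries. Ly6a, an interferon induced surface protein, was at 473 CPM in the natural killer cells of day 7 replicate 3, where the next library had 118 CPM. The endothelial markers of the members summed to 1353 CPM in the same library, against 26.3 to 49.9 CPM in the other day 7 libraries, and their part in this value was not tested. Tnfrsf4, a receptor of activated T cells, was at 48.5 CPM in day 7 replicate 4, where the next of the 7 libraries had 6.54 CPM and the other 5 had no UMI.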

How the results depend on the processing

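Natural killer cells against T lymphocytes gave 95 to 158 higher and 92 to 133 lower genes with each library left out. Of its 56 named genes, none reversed and 44 kept their side of the threshold wherever they were tested. Without a filter 366 genes were lower and 200 higher, and with few dendritic cell and endothelial markers 87 were higher and 75 lower, the latter among fewer tested genes. For p7N3 against day 7 the counts were 8 higher and 57 lower without a filter, 1 higher without p7N3 replicate 3, 1 lower without day 7 replicate 1, and 0 under the other alternatives. A minimum of 20 cells could not be fitted there. For day 7 against day 0, DESeq2 gave 19 higher genes, 3 of 4 markers 13 lower, few dendritic cell and endothelial markers 14 higher and 10 lower, no filter 200 higher and 8 lower, replicates 1 to 3 only 3 higher and 8 lower, and removal of top Scrublet scores 18 higher and 4 lower. Leaving out a library gave 4 to 13 higher and 8 to 28 lower, with 4 and 8 without day 0 replicate 1, 12 lower without day 0 replicate 2, 4 higher without day 0 replicate 3 or day 7 replicate 2, and 10 lower without day 0 replicate 4. The cause of these shifts was not tested.

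Whether replicate numbers pair the libraries was not settled. For p7N3 and day 7, same-numbered deviations correlated by -0.0021, 0.0105 and 0.1862, and differently numbered ones by -0.2153 to 0.1519. For day 7 and day 0 these were -0.0689 to 0.0884 and -0.1625 to 0.1172. So few correlations of sparse sums cannot exclude a pairing. With the replicate block p7N3 against day 7 had 0 calls (64 unadjusted) and day 7 against day 0 had 16 higher and 23 lower.

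The share of natural killer cells at day 7 against day 0 was -2.29 points among leukocytes and -0.0737 with few dendritic cell and endothelial markers (0.0523 to 0.183 with a library left out). For p7N3 against day 7 it was -0.0977 among leukocytes, -0.0149 after thinning and -0.00956 with 3 markers (-0.112 without p7N3 replicate 1, the lowest, to 0.171). The other 4 differences in share kept their sign throughout, and the 2 with day 3 kept their groups apart. The difference of 13.7 points in dividing cells was 7.61 to 19.8 with a library left out, and with at least 3 cell cycle genes it was -2.74. With 2 to 4 members in a day 0 library, depth limits every level at day 0.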
